A study of Mus musculus with 32 samples.

Results

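The EGF family of ligands and their ErbB receptors were examined in the cells of mouse pancreatic islets during β cell loss and recovery. The 10 genes were chosen by symbol: the ligands Hbegf, Areg, Ereg, Btc, Tgfa and Nrg1 and the receptors Egfr, Erbb2, Erbb3 and Erbb4. All 10 were found among the 22850 genes of the deposited expression table. EGF family ligands are made as membrane-anchored precursors that proteases release from the cell surface, after which they bind ErbB receptors on the same or neighbouring cells. Bound receptors pair with each other, phosphorylate one another and signal through the Ras-ERK and PI3K-Akt pathways. Erbb2 has no known ligand of its own and Erbb3 is a weak kinase, so both act mainly as partners. In the pancreas the family is known for roles in duct and acinar growth and in β cell growth and survival.

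Macrophages (MΦs), endothelial cells (ECs) and β cells were sorted from islets of adult βVEGF-A; MIP-GFP mice (RIP-rtTA; TetO-VEGF-A; MIP-GFP, on a C57BL/6 background), and the RNA of each sorted sample was amplified and sequenced. All groups carried the same 3 transgenes, No Dox mice included. The rat Ins2 promoter drives rtTA in β cells, doxycycline (Dox) then switches on human VEGF-A165, and the mouse Ins1 promoter drives the GFP by which β cells were sorted. ECs were sorted by CD31 and MΦs by CD11b. Mice were taken before Dox (No Dox; 4 β cell, 4 EC and 4 MΦ samples), after 1 week of Dox (1wk Dox; 5, 1 and 2 samples) or 1 week after its withdrawal (1wk WD; 3, 5 and 4 samples). The design asks how ligands and receptors are distributed over the 3 cell types and whether they change while VEGF-A is raised and after it falls. No group without the transgenes was analysed here. Several mice contributed islets to every sorted sample. The study counts samples as biological replicates, so p-values measure the spread between these 32 sorted samples. The 3 cell types were separated from the same dispersed islet cells, so samples of different cell types may share a pool. Which samples do is not stated, and the fits treat all samples as independent.

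Levels are TMM-normalized scores, whole numbers of which 1 is the lowest listed, so a gene listed at 1 is at the floor of the table. The deposited scores keep no read counts and the depth behind each value is unknown. Score sums ran from 23465985 to 53441769 per library. The sorted populations carried their own markers: 10 endothelial markers summed to 427801 to 717369 in the EC libraries and to at most 65148 in the others, 10 MΦ markers to 336989 to 580635 in MΦs and at most 7917 elsewhere, and 10 β cell markers to 513966 to 10941261 in β cells and at most 47759 elsewhere. In 5 No Dox libraries (β cells 3 and 4, EC 2, MΦs 2 and 4) the 8 acinar markers summed to over 1000000. The 10 pericyte and stromal markers summed to over 100000 in 9 of the 12 β cell libraries. In these sorted bulk samples, fewer cells of a type and less RNA per cell cannot be told apart.

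**Figure D1:**
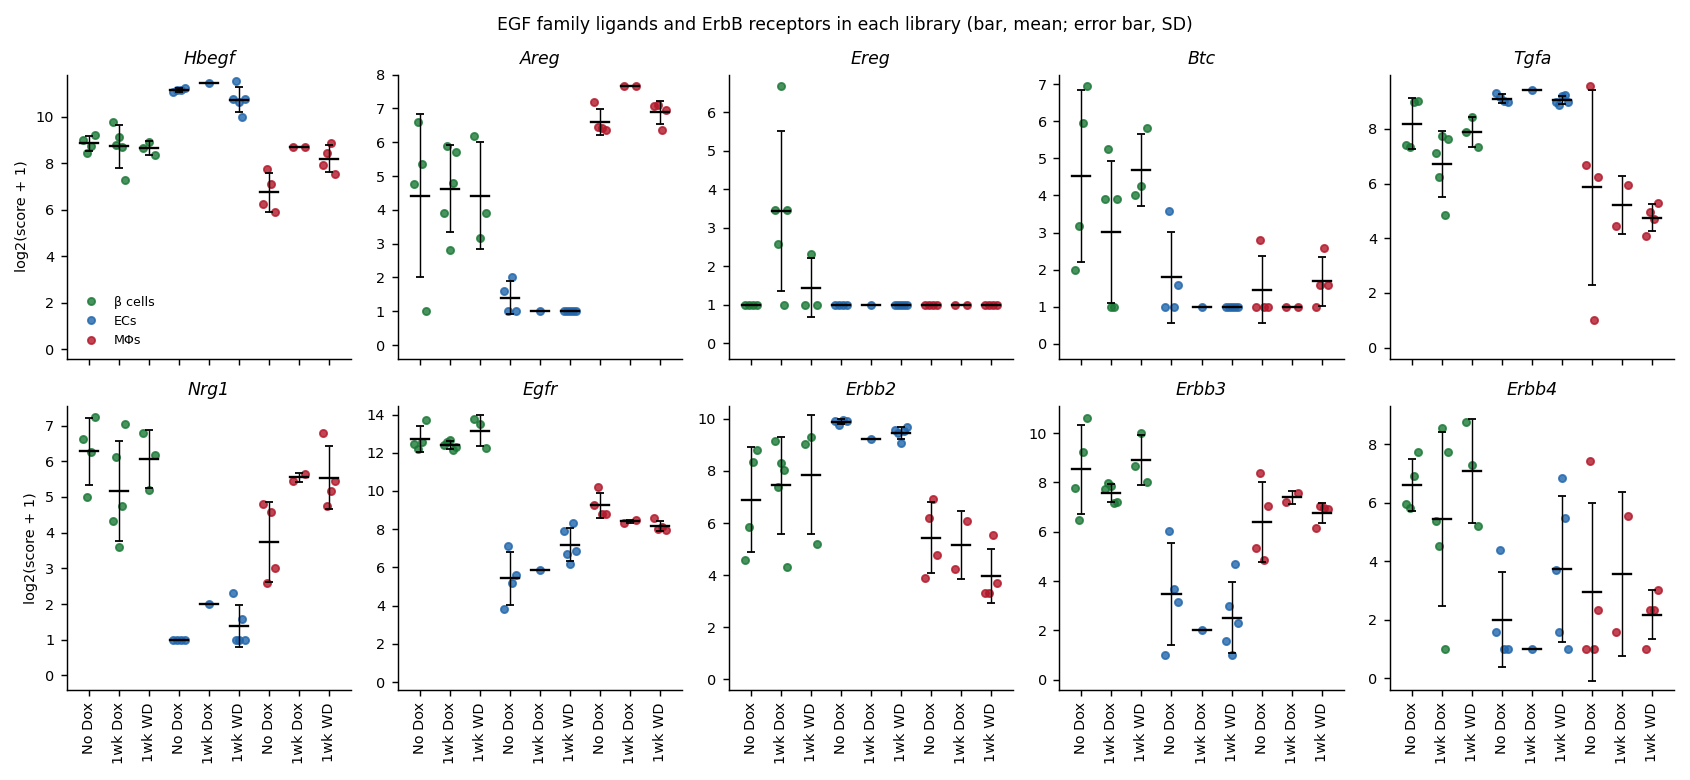
Each panel plots log2(score + 1) of a member in every library (points) of the 3 cell types at each time point, with the group mean (bar) and SD (error bar, groups of 2 or more). Egfr sits highest in β cells, Hbegf and Erbb2 in ECs and Areg in MΦs, and Ereg lies at the floor outside β cells.

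Between cell types, 3 to 8 of the 10 members were called in each comparison. A gene was called when its fold was at least 2 and its Benjamini-Hochberg adjusted p under 0.05 in limma across all genes tested. At No Dox, 8 of the 10 members were called between β cells and ECs, where 39.8% of 16968 genes were called; 6 were higher in β cells (22.5% of genes) and 2 lower (17.3%). Between β cells and MΦs 7 were called (44.2% of genes), 6 higher in β cells (24.5%) and 1 lower (19.8%). Between ECs and MΦs 7 were called (35.0%), 3 higher in ECs (16.9%) and 4 lower (18.1%). At 1wk Dox, with 2 MΦ samples, 3 members were called between β cells and MΦs (40.3%), 2 higher in β cells (22.6%) and 1 lower (17.7%). At 1wk WD, 6 were called between β cells and ECs (37.2%), 5 higher in β cells (23.7%) and 1 lower (13.4%). In β cells against MΦs 6 were called (43.9%), 5 higher (25.8%) and 1 lower (18.1%), and in ECs against MΦs 6 (38.3%), 3 higher (18.4%) and 3 lower (19.8%). The share of members called was above that of all genes at No Dox and 1wk WD and below it at 1wk Dox. These shares rest in part on the filter on low scores (a mean of 20 or more in any group). Btc passed it only through β cells and is among the calls of both β cell comparisons at No Dox and at 1wk WD. Ereg passed it only through 1wk Dox β cells and is 1 of the 3 members called at that time point. Ranges did not overlap at No Dox for 6 members between β cells and ECs (47.5% of genes), 3 between β cells and MΦs (42.7%) and 5 between ECs and MΦs (48.5%). At 1wk Dox they did not overlap for 2 members (58.7%), and at 1wk WD for 7, 6 and 6 in the same order of comparisons (44.6%, 54.5% and 52.4%). β cells were highest in Egfr, Erbb3, Erbb4 and Btc in group mean at all 3 time points, ECs in Hbegf, Tgfa and Erbb2, and MΦs in Areg.

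**Figure D2:**
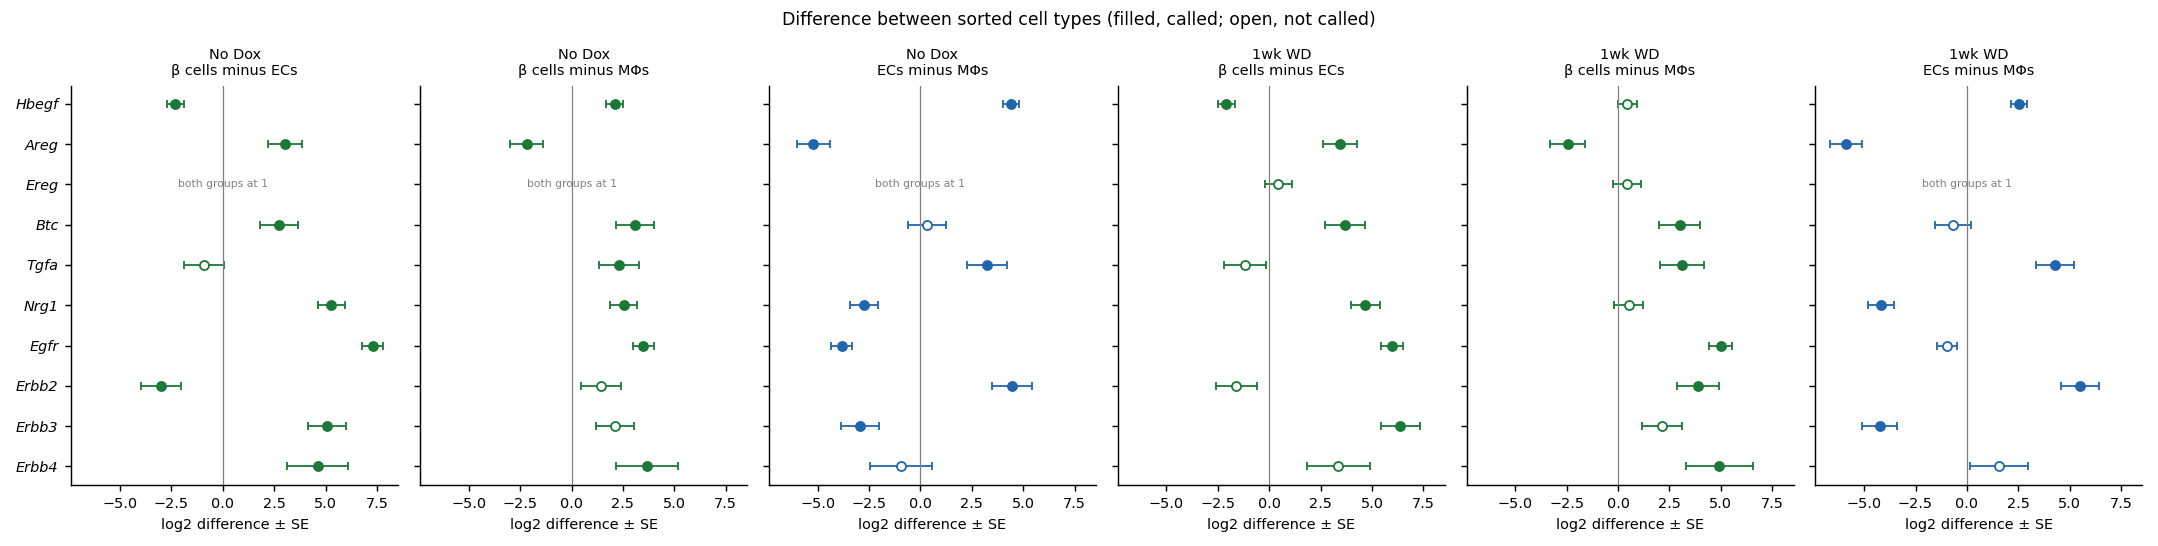
Differences in log2(score + 1) between sorted cell types at No Dox and 1wk WD, with the SE of the limma fit; filled points were called, open points were not. The difference in Egfr between β cells and ECs is the widest at No Dox, 7.31, and Erbb2 lies above 0 in both EC against MΦ panels.

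The sequences before the start sites of 4 members are shown as examples of members whose mean was higher in 1 cell type than in both others: Egfr for β cells, Areg for MΦs, and Tgfa and Erbb2 for ECs. Each run is the 250 bases before the RefSeq gene start in GRCm38.p6 (a later build than the mm9 of the deposited table), 5′ to 3′ on the plus strand, at chr11:16751953-16752202 for Egfr, chr5:91139349-91139598 for Areg, chr6:86194972-86195221 for Tgfa and chr11:98412234-98412483 for Erbb2. RefSeq windows were matched for 6 of the 10 members. Capitals mark matches to 5 motifs searched on both strands: AP-1 (TGANTCA), CRE (TGACGTCA), ETS (CCGGAAG), GC box (GGGCGG) and TATA box (TATAAA).
Egfr: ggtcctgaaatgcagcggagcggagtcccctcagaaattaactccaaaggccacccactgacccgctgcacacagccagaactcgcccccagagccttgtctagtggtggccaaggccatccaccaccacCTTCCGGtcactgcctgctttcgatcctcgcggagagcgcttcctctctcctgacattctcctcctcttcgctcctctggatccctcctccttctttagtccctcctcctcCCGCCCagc
Areg: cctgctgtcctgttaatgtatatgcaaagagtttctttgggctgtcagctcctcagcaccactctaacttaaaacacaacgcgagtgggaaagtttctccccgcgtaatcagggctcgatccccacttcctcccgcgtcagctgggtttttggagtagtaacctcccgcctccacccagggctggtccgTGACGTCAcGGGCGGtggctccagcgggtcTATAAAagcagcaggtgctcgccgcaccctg
Tgfa: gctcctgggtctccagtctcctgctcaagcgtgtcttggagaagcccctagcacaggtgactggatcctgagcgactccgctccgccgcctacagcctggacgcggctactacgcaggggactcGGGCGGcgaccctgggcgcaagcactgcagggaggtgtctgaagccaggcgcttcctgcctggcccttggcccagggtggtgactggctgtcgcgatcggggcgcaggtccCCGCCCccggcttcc
Erbb2: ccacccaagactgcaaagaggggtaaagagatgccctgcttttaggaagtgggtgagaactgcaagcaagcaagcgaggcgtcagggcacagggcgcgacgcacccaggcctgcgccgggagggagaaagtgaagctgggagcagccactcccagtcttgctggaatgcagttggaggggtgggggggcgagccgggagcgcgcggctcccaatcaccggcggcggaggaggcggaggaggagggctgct
The Areg window held a CRE 54 to 61 bases before the start, a GC box at 47 to 52 and a TATA box at 26 to 31. A CRE was present in 1.55% of all 32851 promoter windows of this length, a TATA box in 12.4% and a GC box in 32.7%. Egfr held an ETS match 114 to 120 bases before the start (present in 6.91% of windows) and a GC box, Tgfa held 2 GC boxes, and the Erbb2 window held none of the 5 motifs, nor did those of Btc and Erbb4. An AP-1 match, present in 6.75% of windows, was in none of the 6. These letters describe the windows and were not related to the scores.

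Hbegf, heparin-binding EGF-like growth factor, is a ligand of Egfr and Erbb4 and lies on chromosome 18. In ECs, Hbegf scored 2115, 2294, 2293 and 2440 at No Dox, 2768 in the 1wk Dox sample, then 1747, 2970, 1575, 1029 and 1740 at 1wk WD. In β cells it scored 516, 350, 422 and 593 at No Dox, 887, 438, 556, 410 and 154 at 1wk Dox, then 405, 487 and 324 at 1wk WD. Endothelial markers in the 1wk Dox β cell libraries summed, in the same order, to 65148, 21955, 31945, 10057 and 2125. They summed to 1752 to 12046 in No Dox β cells and 8595 to 19159 at 1wk WD, and their part was not tested. MΦs scored 74, 217, 137 and 59 at No Dox, 413 and 412 at 1wk Dox, then 244, 344, 469 and 184 at 1wk WD. ECs were above both other cell types at every time point without overlap, and β cells were above MΦs without overlap at No Dox. The β cell and MΦ ranges overlapped at 1wk Dox and 1wk WD. At No Dox the score was 2286 ± 133 (SD, n = 4) in ECs, 470 ± 106 (n = 4) in β cells and 122 ± 71.9 (n = 4) in MΦs. ECs exceeded MΦs by 4.40 ± 0.41 (log2, SE; adjusted p = 7.47e-10), β cells minus ECs gave -2.31 ± 0.41 (adjusted p = 3.21e-05), and β cells exceeded MΦs by 2.10 ± 0.41 (adjusted p = 8.89e-05). At 1wk WD the ECs still exceeded MΦs, by 2.55 ± 0.39 (adjusted p = 3.31e-06), and the difference between β cells and MΦs, 0.45 ± 0.44, was not called, nor was that at 1wk Dox, 0.04 ± 0.49.

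Within MΦs, Hbegf gave the lowest adjusted p of any member at 1wk Dox against No Dox, and Egfr gave the lowest at 1wk WD. Markers of ECs, the cell type with the most Hbegf, summed to 4754 and 5773 in the 1wk Dox MΦ samples against 2496 to 3284 at No Dox, and the MΦ markers themselves to 479120 and 580635 against 336989 to 421002; the part of these was not tested. Both 1wk Dox samples (413 and 412) lay above all 4 No Dox samples, of which the highest was 217, and at 1wk WD 3 of 4 samples lay above that value. The difference from No Dox was 1.94 ± 0.52 (log2, SE) at 1wk Dox with an adjusted p of 0.0514, just outside the threshold, and 1.44 ± 0.42 at 1wk WD with an adjusted p of 0.106. The No Dox sample with 217 is also the one whose acinar marker sum was 12184621. Without it the differences were 2.28 at 1wk Dox (adjusted p = 0.019) and 1.78 at 1wk WD (adjusted p = 0.0482). Without No Dox MΦ sample 3 the 1wk Dox difference was 2.06 (adjusted p = 0.0463). With every library of a high acinar marker sum left out, 2 of the 4 No Dox MΦ samples remained and the 1wk Dox difference was 2.02 (adjusted p = 0.022). It was also called with quantile normalization. The 1wk Dox difference stayed uncalled without No Dox MΦ sample 1 or 4. It also stayed uncalled with no filter, no trend, a higher pseudocount, a replicate block or only the compared groups fitted. In β cells at both later time points and in ECs at 1wk WD the Hbegf differences from No Dox lay between -0.42 and -0.12 and none was called. The 1wk Dox EC sample, which has no test, lay 0.28 above the No Dox mean. Set against the change in MΦs, the change in β cells differed by -2.06 ± 0.64 (β cells minus MΦs) at 1wk Dox (adjusted p = 0.284) and the change in ECs by -1.86 ± 0.57 (ECs minus MΦs) at 1wk WD (adjusted p = 0.168), so a difference between cell types in the change was not called.

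Areg, amphiregulin, is a ligand of Egfr, and its gene sits in a cluster of ligand genes on chromosome 5 (mm9 chr5:91568641-91577458) with Ereg (chr5:91503643-91522675), Epgn (chr5:91456490-91464241) and Btc (chr5:91786287-91831939). MΦs scored 144, 86, 85 and 82 at No Dox, 202 and 202 at 1wk Dox, then 134, 137, 82 and 124 at 1wk WD. β cells scored 26, 95, 40 and 1 at No Dox, 14, 58, 6, 27 and 51 at 1wk Dox, then 72, 8 and 14 at 1wk WD. ECs were at or near the floor in every sample, at 2, 1, 3 and 1 at No Dox and at 1 in all 6 later samples. The order was therefore MΦs, β cells, ECs at each time point, with MΦs and β cells overlapping at No Dox only through the β cell sample at 95. β cells and ECs also overlapped at No Dox, through the β cell sample at 1. ECs minus MΦs gave -5.21 ± 0.80 at No Dox (adjusted p = 4.3e-06), and β cells minus ECs gave 3.03 ± 0.80 (adjusted p = 0.00251). β cells minus MΦs gave -2.18 ± 0.80 at No Dox (adjusted p = 0.0227), -3.04 ± 0.95 at 1wk Dox (adjusted p = 0.00949) and -2.46 ± 0.87 at 1wk WD (adjusted p = 0.0185). The No Dox difference rests on few samples. It was -1.04 (adjusted p = 0.179) without β cell sample 4, which is at 1, and -1.99 (adjusted p = 0.0594) without MΦ sample 1. At 1wk Dox the call was lost without either of the 2 MΦ samples (adjusted p = 0.0657 and 0.0626). At 1wk WD it was lost without β cell sample 2 (adjusted p = 0.117) or 3 (adjusted p = 0.0667). The No Dox difference from MΦs was also not called with only the compared groups fitted (adjusted p = 0.141), without the libraries of high acinar marker sum (0.311) or with only the β cell libraries of a stromal marker sum under 100000 (0.0893). That between β cells and ECs was not called with only the compared groups fitted (0.0559). In MΦs the 2 samples at 1wk Dox lay above every No Dox sample, by 1.06 ± 0.41 in log2, with an adjusted p of 0.162.

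Ereg, epiregulin, and Btc, betacellulin, each activate Egfr and Erbb4, and both were scarce. Ereg was listed at 1 in every EC and MΦ sample and in all 4 No Dox β cell samples. Its only values above 1 were 10, 5, 102 and 10 in 4 of the 5 β cell samples at 1wk Dox and 4 in 1 of the 3 at 1wk WD. Since the No Dox group is wholly at the floor, no fold is given. Ereg passed the filter on low scores (a mean of 20 or more in any group) only through 1wk Dox β cells, with a mean of 25.6 carried by the sample at 102, so its tests against that group support nothing and are given for completeness. In β cells at 1wk Dox it was not called against No Dox (adjusted p = 0.677). It was called between β cells and MΦs at 1wk Dox (adjusted p = 0.00966), again against a group at the floor, with the ranges touching at 1, and the call was lost without either MΦ sample (adjusted p = 0.0654 and 0.0633) and with only the compared groups fitted (0.181). Btc scored 3, 8, 61 and 122 in β cells at No Dox, 14, 37, 1, 1 and 14 at 1wk Dox, then 15, 18 and 55 at 1wk WD. It did not exceed 11 in any EC sample or 6 in any MΦ sample. Btc passed the filter only through β cells, with means of 48.5 at No Dox and 29.3 at 1wk WD against at most 3.75 in any EC or MΦ group, so it had to differ between cell types. β cells exceeded ECs in Btc by 2.72 ± 0.92 at No Dox (adjusted p = 0.015) and MΦs by 3.06 ± 0.92 (adjusted p = 0.00601), with overlap in both. The call against ECs was lost without β cell sample 3 or 4 (adjusted p = 0.06 and 0.0823). Both No Dox calls were lost with only the compared groups fitted (adjusted p = 0.0918 and 0.0603) and with only the β cell libraries of a stromal marker sum under 100000 (0.315 and 0.14). At 1wk WD, with no overlap, β cells exceeded MΦs by 3.0 ± 1.0 (adjusted p = 0.0127; 0.0717 without β cell sample 3, and not called with quantile normalization) and were called against ECs, which were all listed at 1 (adjusted p = 0.00215). At 1wk Dox, with both MΦ samples listed at 1, β cells and MΦs were not called apart (adjusted p = 0.13). The 2 highest No Dox β cell samples were those with the highest acinar marker sums, 13328880 and 9774887. Without the libraries of high acinar marker sum, the 2 differences were 1.39 (adjusted p = 0.228) and 1.59 (adjusted p = 0.2), and the β cell difference of 1wk Dox from No Dox turned from -1.5 to 0.43, neither called. The part of acinar material was not tested.

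Tgfa, transforming growth factor alpha, is an Egfr ligand (mm9 chr6:86145420-86225151). ECs held a narrow range, 627, 569, 514 and 502 at No Dox, 688 in the 1wk Dox sample, then 499, 470, 594, 603 and 503 at 1wk WD. β cells scored 170, 160, 501 and 520 at No Dox, 137, 75, 215, 28 and 195 at 1wk Dox, then 235, 344 and 159 at 1wk WD. MΦs scored 101, 752, 1 and 74 at No Dox, 21 and 61 at 1wk Dox, then 16, 30, 25 and 38 at 1wk WD. At 1wk WD the 3 cell types formed 3 separate ranges, ECs highest and MΦs lowest, while at No Dox all neighbours overlapped. ECs exceeded MΦs by 4.30 ± 0.93 at 1wk WD (adjusted p = 0.00032) and β cells exceeded MΦs by 3.12 ± 1.06 (adjusted p = 0.0145; 0.0545 without β cell sample 2, 0.199 with only the β cell library of a stromal marker sum under 100000, and not called with quantile normalization). At No Dox the EC minus MΦ difference was 3.24 ± 0.98 (adjusted p = 0.00776) and the β cell minus MΦ difference 2.32 ± 0.98 (adjusted p = 0.0454). The latter fell to 0.70 (adjusted p = 0.388) without the MΦ sample listed at 1, and its adjusted p was 0.0579 to 0.107 without each of β cells 3 and 4 and MΦ sample 4. The EC minus MΦ difference was 1.62 without that same sample, MΦ sample 3, and still called. It was 5.26 without the libraries of high acinar marker sum, and was not called with only the compared groups fitted (adjusted p = 0.0817). The β cell minus MΦ difference at No Dox was 3.55 without MΦ sample 2. It was not called with a pseudocount of 20, with no filter, with no trend, with quantile normalization, with only the compared groups fitted (adjusted p = 0.259) or with only the β cell libraries of a stromal marker sum under 100000 (0.322). The ECs and β cells were not called apart at No Dox (-0.92 ± 0.98, β cells minus ECs) or at 1wk WD (-1.18 ± 1.01), nor were β cells and MΦs at 1wk Dox (1.51 ± 1.16). The MΦ sample at 752 was the library with the acinar marker sum of 12184621 and the 2 highest No Dox β cell samples, 501 and 520, were again those with the highest sums. Within cell types the Tgfa difference from No Dox in β cells at 1wk Dox was -1.47 ± 0.64, with an unadjusted p of 0.0406 and an adjusted p of 0.702, and its MΦ difference at 1wk WD, -1.11, turned to 0.12 without MΦ sample 2.

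Nrg1, neuregulin 1, binds Erbb3 and Erbb4 (mm9 chr8:32928500-33119581). β cells scored 97, 31, 76 and 150 at No Dox, 19, 69, 11, 26 and 132 at 1wk Dox, then 111, 36 and 71 at 1wk WD. MΦs scored 27, 5, 23 and 7 at No Dox, 43 and 49 at 1wk Dox, then 110, 26, 35 and 43 at 1wk WD. All 4 No Dox ECs were listed at 1, the 1wk Dox EC sample at 3 and the 1wk WD ECs at 4, 1, 1, 2 and 1. β cells lay above MΦs without overlap at No Dox, by 2.54 ± 0.66 (adjusted p = 0.00185), and overlapped them at 1wk Dox and 1wk WD, where the differences were -0.38 ± 0.78 and 0.52 ± 0.71 and neither was called. ECs were lowest at each time point without overlap. At 1wk WD β cells exceeded ECs by 4.68 ± 0.68 (adjusted p = 2.5e-06) and ECs minus MΦs gave -4.16 ± 0.63 (adjusted p = 2.64e-06). The difference between β cells and MΦs at No Dox was 1.11 (adjusted p = 0.32) without the libraries of high acinar marker sum. Within MΦs both 1wk Dox samples lay above all 4 No Dox samples, with a difference of 1.81 ± 0.86 (adjusted p = 0.249), and at 1wk WD the difference was 1.80 ± 0.70 (adjusted p = 0.214). In β cells the difference at 1wk Dox was -1.11 ± 0.76 (adjusted p = 0.8). The 2 changes differed by -2.92 ± 1.02 (β cells minus MΦs; unadjusted p = 0.00839, adjusted p = 0.38).

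Egfr, the receptor for EGF, Tgfa, Areg and Hbegf (mm9 chr11:16652206-16818161), set β cells apart. β cells scored 5648, 4730, 5955 and 13421 at No Dox, 5486, 6039, 6548, 4467 and 4998 at 1wk Dox, then 13705, 11448 and 4815 at 1wk WD. MΦs scored 606, 1167, 439 and 436 at No Dox, 324 and 353 at 1wk Dox, then 379, 260, 274 and 250 at 1wk WD. ECs scored 13, 140, 35 and 47 at No Dox, 57 in the 1wk Dox sample, then 238, 103, 72, 314 and 117 at 1wk WD. The lowest β cell sample, 4467, was above the highest sample of either other cell type, 1167, and MΦs lay above ECs without overlap until 1wk WD, when the EC sample at 314 reached into the MΦ range. β cells exceeded ECs by 7.31 ± 0.51 at No Dox (adjusted p = 5.87e-12) and by 5.96 ± 0.52 at 1wk WD (adjusted p = 6.33e-10). ECs minus MΦs gave -3.82 ± 0.51 at No Dox (adjusted p = 4.2e-07) and -0.97 ± 0.48 at 1wk WD (not called; -1.25 and called without EC sample 4, adjusted p = 0.0365). β cells exceeded MΦs by 3.48 ± 0.51 at No Dox (adjusted p = 1.6e-06), 4.01 ± 0.60 at 1wk Dox (adjusted p = 3.87e-06) and 4.98 ± 0.55 at 1wk WD (adjusted p = 2.23e-08). In the 3 β cell libraries with a stromal marker sum under 100000 (2 at No Dox, 1 at 1wk WD, assumed to vary like the other groups) the differences were 6.91 and 5.04 against ECs and 3.09 and 4.07 against MΦs, and all 4 were called.

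Over time, the Egfr differences from No Dox had opposite signs in ECs and MΦs at 1wk WD, and neither was called. The EC difference at 1wk WD was 1.77 ± 0.60 (unadjusted p = 0.0122, adjusted p = 0.126), with the No Dox EC sample at 140 inside the 1wk WD range. In MΦs the difference was -0.84 ± 0.37 at 1wk Dox (adjusted p = 0.216) and -1.08 ± 0.30 at 1wk WD (adjusted p = 0.0971), and no later MΦ sample reached the lowest No Dox score, 436. In the MΦ libraries the 8 ductal markers ran in sum from 3329 to 8147 at No Dox and from 1742 to 2362 at 1wk WD, with 1626 and 3841 at 1wk Dox and Cftr at 1 in a library of each group. The 8 Schwann markers ran in sum from 8582 to 10207 at No Dox and from 5867 to 7908 at 1wk WD, with 4732 and 5774 at 1wk Dox, nearly all of it Mbp (8315 to 10043 at No Dox), while Sox10 was at 1 to 15 at No Dox. The part of these in the Egfr scores was not tested. The test of the difference between the 2 changes gave 2.85 ± 0.70 (ECs minus MΦs) with an adjusted p of 0.0746, the lowest of any member among the 4 such contrasts. Without EC No Dox sample 2, the sample at 140, whose acinar marker sum of 1839455 was the only one over 1000000 in ECs, it was 3.42 with an adjusted p of 0.0249, and without all libraries of high acinar marker sum 3.19 with an adjusted p of 0.0304. This contrast stayed uncalled without each other sample in turn and under the other alternatives run. The 1wk WD ECs with the highest Egfr, samples 1 and 4, also had the highest stromal marker sums of their group, 48958 and 70818 against 16858 to 22314 in the other 3 and 5637 to 12607 at No Dox; the part of stromal RNA was not tested.

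Erbb2, the co-receptor without a ligand of its own (mm9 chr11:98273784-98299030), was highest in ECs. ECs scored 969, 870, 1004 and 959 at No Dox, 596 in the 1wk Dox sample, then 764, 700, 532, 746 and 814 at 1wk WD. MΦs scored 14, 72, 120 and 26 at No Dox, 18 and 67 at 1wk Dox, then 9, 9, 45 and 12 at 1wk WD. β cells were spread from 19 to 629: 23, 56, 321 and 447 at No Dox, 570, 167, 317, 261 and 19 at 1wk Dox, then 529, 629 and 36 at 1wk WD. ECs lay above MΦs without overlap throughout, by 4.45 ± 0.96 at No Dox (adjusted p = 0.000359) and 5.49 ± 0.92 at 1wk WD (adjusted p = 1.15e-05). β cells lay below ECs at No Dox without overlap (-3.0 ± 0.96; adjusted p = 0.0107) and overlapped them at 1wk WD (-1.61 ± 1.0, not called). The No Dox call was lost without β cell sample 1 (-2.24, adjusted p = 0.0612). β cells exceeded MΦs at 1wk WD by 3.89 ± 1.04 (adjusted p = 0.00262), with the β cell sample at 36 inside the MΦ range. The same difference was not called at No Dox (1.45 ± 0.96, adjusted p = 0.205) or at 1wk Dox (2.28 ± 1.14, adjusted p = 0.101; 0.0176 and called without β cell sample 5), where the ranges also overlapped. In ECs the 5 samples at 1wk WD all lay below the 4 at No Dox, a difference of -0.43 ± 0.14 (unadjusted p = 0.00995, adjusted p = 0.114; 10.7% of genes tested did not overlap between these groups), and the 1wk Dox EC sample, at 596, lay below the No Dox range too. Over the same samples the 10 endothelial markers summed to 585746 to 620354 at No Dox and 427801 to 491660 at 1wk WD, with Kdr, Flt1, Eng and Tie1 lower without overlap and the other 6, Pecam1 and Cdh5 among them, overlapping. In the 1wk Dox sample they summed to 717369. The stromal marker sums were 5637 to 12607 at No Dox and 16858 to 70818 at 1wk WD, and the part of either was not tested.

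Erbb2 in β cells was lowest in the libraries with the lowest pericyte and stromal marker sums, a grouping of 4 libraries made after the values were seen. The 4 libraries with the lowest sums, 1031 and 1125 (No Dox 1 and 2), 25966 (1wk WD 3) and 107869 (1wk Dox 5), were the 4 with the lowest Erbb2, 19 to 56, against 167 to 629 in the 8 libraries with sums from 153817 to 540417. The same split, with all 4 low libraries below the other 8, was seen in 7.19% of the 16346 genes tested in β cells and in no other member; the reverse split was seen in 5.2% of genes and in no member. At 1 of 10 members, the count is near the background share. At a limit of 100000 the Erbb2 ranges overlapped, with 23 to 56 in the 3 libraries below it and 19 to 629 in the 9 above. Of the 10 markers, 9 were lower in all 4 libraries of lowest sum than in any of the other 8, Col1a1 being the exception, and Lum was the only marker at 1 in a library. With only the 3 β cell libraries under 100000, the β cell minus EC difference at No Dox was -4.68, and the 1wk WD difference from MΦs was 1.24 (adjusted p = 0.267), no longer called. The part of stromal RNA in the β cell Erbb2 scores was not tested.

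**Figure D3:**
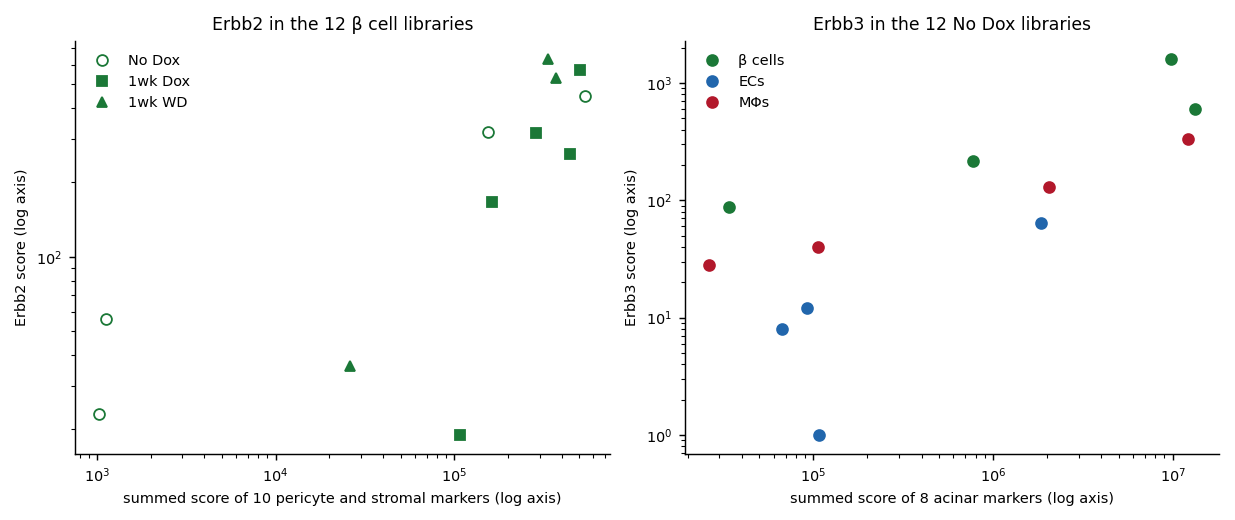
Left, Erbb2 score against the summed score of 10 pericyte and stromal markers in the 12 β cell libraries; right, Erbb3 score against the summed score of 8 acinar markers in the 12 No Dox libraries (all axes log). The 4 β cell libraries with the lowest stromal sums sit at Erbb2 scores of 19 to 56, and in each cell type the highest Erbb3 score falls in a library with an acinar sum over 1000000.

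Erbb3 pairs with Erbb2 to receive neuregulins (mm9 chr10:128004579-128026708). β cells scored 218, 87, 605 and 1588 at No Dox, 210, 248, 232, 142 and 148 at 1wk Dox, then 403, 1041 and 261 at 1wk WD. MΦs scored 40, 334, 28 and 131 at No Dox, 147 and 190 at 1wk Dox, then 71, 132, 123 and 119 at 1wk WD. ECs scored 1, 64, 12 and 8 at No Dox, 3 in the 1wk Dox sample, then 2, 7, 1, 25 and 4 at 1wk WD. The order was β cells, MΦs, ECs throughout; β cells and ECs never overlapped, and MΦs overlapped β cells at 1wk Dox as well as No Dox, and ECs at No Dox. β cells exceeded ECs by 5.05 ± 0.92 at No Dox (adjusted p = 4.18e-05) and 6.38 ± 0.95 at 1wk WD (adjusted p = 3.28e-06). ECs minus MΦs gave -2.94 ± 0.92 at No Dox (adjusted p = 0.00978), a call lost without EC sample 1 (adjusted p = 0.0652) or MΦ sample 2 (adjusted p = 0.0535), and -4.25 ± 0.87 at 1wk WD (adjusted p = 0.00017). The β cell minus MΦ difference just missed the threshold at No Dox (2.12 ± 0.92, adjusted p = 0.0512; called without β cell sample 1, adjusted p = 0.0481, β cell sample 2, 0.0137, or MΦ sample 2, 0.0151) and at 1wk WD (2.13 ± 0.99, adjusted p = 0.0697), and was 0.19 ± 1.09 at 1wk Dox (adjusted p = 0.902).

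In each No Dox cell type, the highest Erbb3 score fell in a library whose acinar marker sum was over 1000000: 605 and 1588 in β cells 3 and 4, 64 in EC sample 2, and 334 and 131 in MΦs 2 and 4. Egfr, Btc and Erbb4 had their highest No Dox score in such a library in all 3 cell types as well, so the pattern held for 4 of 10 members and for 5.72% of 16968 genes. The 8 acinar markers ranged in sum from 33792 to 13328880 in β cells, 67037 to 1839455 in ECs and 26288 to 12184621 in MΦs at No Dox, and the lowest score of any of the 8 in these 12 libraries was 580, for Prss2. With those 5 libraries left out, Erbb3 in MΦs differed from No Dox by 2.29 at 1wk Dox (adjusted p = 0.0174) and 1.66 at 1wk WD (adjusted p = 0.0481), where all samples gave 0.98 ± 0.79 (adjusted p = 0.521) and 0.36 ± 0.65 (adjusted p = 0.808). Only 2 No Dox MΦ samples, at 40 and 28, remained in that fit. The part of acinar RNA was not tested.

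Erbb4 is a receptor for neuregulins, Btc and Hbegf (mm9 chr1:68078760-69154633). β cells scored 61, 55, 121 and 212 at No Dox, 41, 22, 380, 1 and 214 at 1wk Dox, then 434, 157 and 36 at 1wk WD. ECs scored 2, 20, 1 and 1 at No Dox, 1 in the 1wk Dox sample, then 12, 2, 114, 44 and 1 at 1wk WD. MΦs scored 1, 170, 1 and 4 at No Dox, 2 and 46 at 1wk Dox, then 1, 4, 4 and 7 at 1wk WD. β cells were highest in group mean at each time point, and ECs and MΦs overlapped throughout or, at 1wk Dox, rested on 1 EC sample at the floor. β cells exceeded ECs by 4.61 ± 1.5 at No Dox without overlap (adjusted p = 0.0118) and MΦs by 4.93 ± 1.62 at 1wk WD without overlap (adjusted p = 0.012); the second call was lost without β cell sample 1 (adjusted p = 0.0636). With overlapping ranges, β cells minus ECs at 1wk WD gave 3.37 ± 1.55 (adjusted p = 0.0738; called without β cell sample 3, 0.0495, or EC sample 3, 0.0324) and β cells minus MΦs at 1wk Dox 1.88 ± 1.78 (adjusted p = 0.404), and neither was called. The No Dox difference from MΦs, 3.67 ± 1.5 (adjusted p = 0.0389), overlapped through the MΦ sample at 170, the library with the highest acinar sum of its group, and its adjusted p was 0.0705 to 0.119 without each of 5 other samples in turn. It was also not called with a pseudocount of 20, with no filter, with quantile normalization or with only the compared groups fitted (adjusted p = 0.0628). With only the β cell libraries of a stromal marker sum under 100000 none of the 3 Erbb4 differences was called (adjusted p = 0.0595 and 0.144 at No Dox against ECs and MΦs, 0.252 at 1wk WD against MΦs). No difference between time points was called.

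Across the 7 comparisons between time points within a cell type, 0 members were called by limma. In β cells 0 of 10 members were called at 1wk Dox (0.0122% of 16346 genes called), at 1wk WD (0.0%) or between the 2 (0.0%), with 2, 0 and 0 members at an unadjusted p under 0.05. In ECs 0 of the 6 members that passed the filter were called at 1wk WD, where 1.76% of 14167 genes were, with 2 at an unadjusted p under 0.05, Egfr and Erbb2. In MΦs 0 of 8 were called at 1wk Dox (2.26% of 15014 genes), 1wk WD (0.626%) or between them (0.0866%), with 3, 3 and 0 at an unadjusted p under 0.05. Some members passed the filter through only part of the groups. In ECs these were Erbb3, through No Dox, and Erbb4, through 1wk WD. In MΦs they were Nrg1, through 1wk Dox and 1wk WD, and Erbb2 and Erbb4, through No Dox and 1wk Dox. In β cells they were Ereg, through 1wk Dox, and Btc, through No Dox and 1wk WD. The comparisons with No Dox share its samples within each cell type. Ranges did not overlap for 4 of 8 members between No Dox and 1wk Dox MΦs, namely Hbegf, Areg and Nrg1 (higher) and Egfr (lower), against 30.9% of genes in this comparison of 4 with 2 samples. Between No Dox and 1wk WD MΦs only Egfr of 8 did not overlap (9.24% of genes). Between 1wk Dox and 1wk WD MΦs 2 of 8 did not overlap, Areg and Erbb3, each lower at 1wk WD (30.0% of genes). In β cells ranges did not overlap for 0 of 10 members between No Dox and 1wk Dox (2.55%) or 1wk WD (6.44%), and for 1, Erbb3, between 1wk WD and 1wk Dox (4.97%). The tests of whether the change differed between cell types called 0 of 10 members in each of 4 contrasts, against 0.0354%, 0.383%, 0.0413% and 0.265% of genes, with 3, 0, 2 and 2 members at an unadjusted p under 0.05. A p that misses the threshold does not show that levels were equal: the SE of a β cell difference reached 1.54 in log2 for Erbb4.

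**Figure D4:**
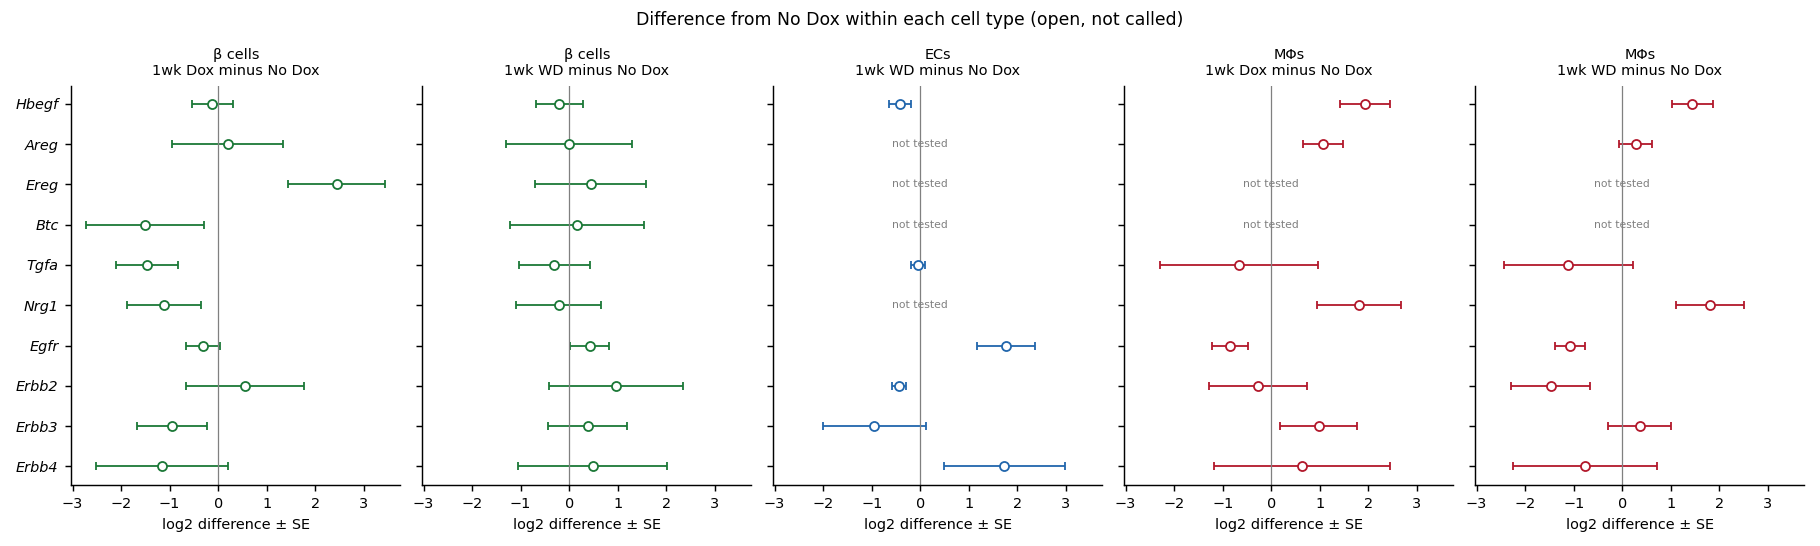
Differences from No Dox in log2(score + 1), with the SE of the limma fit, for members that passed the filter in β cells, ECs and MΦs; open points were not called. Hbegf and Nrg1 lie above 0 and Egfr below 0 in both MΦ panels, and the β cell SEs are widest for Btc, Erbb2 and Erbb4.

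The 1wk Dox EC sample stands alone, so its values have no test. Of the 5 members that passed the filter there, 1 lay past 2-fold from the No Dox mean, Erbb3 with a log2 difference of -1.47 at a score of 3, against 10.7% of 14047 genes. Erbb3 passed the filter only through No Dox, with a mean of 21.25 carried by EC sample 2 at 64, a library of high acinar marker sum. The score of 3 lay inside the No Dox range of 1 to 64, so no change is read from it. Hbegf (2768) and Tgfa (688) lay above the No Dox EC range and Erbb2 (596) below it, by 0.28, 0.32 and -0.67 in log2.

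Of the 5 other ligands of the family, Egf and Nrg3 had their highest scores in β cells and Nrg2 in MΦs. Egf itself scored 1577, 1853, 1692 and 680 in No Dox β cells, 290, 942, 571, 239 and 852 at 1wk Dox, then 304, 461 and 1059 at 1wk WD. In ECs Egf stayed at 24 to 166 in all 10 samples, and in MΦs at 77 to 223 apart from 1257 in No Dox sample 2, the library with the acinar sum of 12184621. β cells exceeded ECs in Egf by 4.42 ± 0.66 at No Dox (adjusted p = 2.74e-06) and 3.40 ± 0.68 at 1wk WD (adjusted p = 0.000167). Its difference from No Dox in β cells was -1.43 ± 0.51 at 1wk Dox (unadjusted p = 0.0163, adjusted p = 0.616) and -1.35 ± 0.58 at 1wk WD (unadjusted p = 0.0386, adjusted p = 0.601). Nrg2, another neuregulin, was highest in MΦs, at 2839, 2048, 2674 and 2556 at No Dox, 1873 and 2535 at 1wk Dox, then 3841, 1467, 2811 and 2327 at 1wk WD, against at most 965 in β cells and 92 in ECs; ECs minus MΦs gave -5.82 ± 0.76 at No Dox (adjusted p = 3.26e-07). Nrg3 was above 1 in β cells alone, at 93, 8, 5 and 20 at No Dox and in 1 of the 8 later samples, at 15. Nrg4 scored 44 to 273 over all libraries and was called in 1 comparison, lower in β cells than in ECs at 1wk WD (-1.32 ± 0.45, adjusted p = 0.0172). Epgn, epigen, did not exceed 14 in any library.

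Of the 12 genes that release ligands or restrain their release, 7 were called between β cells and ECs, all lower in β cells, 9 between β cells and MΦs (4 higher, 5 lower in β cells) and 4 between ECs and MΦs (3 higher in ECs, 1 lower) at No Dox, against 39.8%, 44.2% and 35.0% of all genes. The median difference over the list was -1.79 for β cells minus ECs, against 0.06 over all genes. Among those higher in ECs were Rhbdl2, a rhomboid protease, at 5164 to 6318 in No Dox ECs against 157 to 1375 in β cells (-3.34 ± 0.55, adjusted p = 1.02e-05); Adam12, a metalloprotease that can shed Hbegf, at 19320 to 27387 against 128 to 1753 (-5.67 ± 0.81, adjusted p = 1.39e-06); and Timp3, an inhibitor of shedding proteases, at 196505 to 223364 against at most 62132 (-5.60 ± 0.97, adjusted p = 2.26e-05). In β cells Adam12 and Timp3 were lowest in the 2 No Dox libraries with stromal marker sums of 1031 and 1125. Adam8 was highest in MΦs (-4.05 ± 0.52, ECs minus MΦs, adjusted p = 1.97e-07), as was Adam19 against β cells (-5.37 ± 1.02, adjusted p = 6.07e-05). At 1wk WD 5, 8 and 5 of the 12 were called in the same 3 comparisons, against 37.2%, 43.9% and 38.3% of all genes. At 1wk Dox 8 were called between β cells and MΦs, against 40.3%. None was called in any comparison between time points or between changes, although 10 of 12 differences from No Dox in β cells at 1wk Dox were above 0, with a median of 0.97 against 0.03 over all genes. At 1wk WD 11 of 12 were above 0, with a median of 1.02 against 0.06. The median stromal marker sum of the β cell libraries was 77471 at No Dox (1031 to 540417), 285223 at 1wk Dox (107869 to 505631) and 335307 at 1wk WD (25966 to 369149), and its part was not tested.

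Among 11 restraints of the receptors, 4, 5 and 5 were called at No Dox between β cells and ECs, β cells and MΦs, and ECs and MΦs, near the 39.8%, 44.2% and 35.0% of all genes called. Errfi1, which binds Egfr and blocks its kinase, was highest in β cells, as was Egfr. It scored 22092, 16237, 16770 and 15887 in No Dox β cells against 1458 to 1777 in ECs and 2150 to 3844 in MΦs. β cells exceeded ECs in Errfi1 by 3.47 ± 0.23 (adjusted p = 2.22e-12) and MΦs by 2.61 ± 0.23 (adjusted p = 3.01e-10). Cbl, a ubiquitin ligase that sends Egfr for degradation, was highest in MΦs, at 9676 to 15135 against 1917 to 2754 in β cells (-2.45 ± 0.17, adjusted p = 2.51e-12). The phosphatase Ptpn1 was also higher in MΦs than in β cells (-1.68 ± 0.15, adjusted p = 2.87e-10), whereas Socs5, which promotes Egfr degradation, was highest in ECs (-1.91 ± 0.27, β cells minus ECs, adjusted p = 1.15e-06). At 1wk WD 3, 5 and 4 of the 11 were called in these comparisons, against 37.2%, 43.9% and 38.3% of all genes. At 1wk Dox 3 were called between β cells and MΦs, against 40.3%, and none was called between time points.

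Of 26 genes that carry the signal inward, 8, 7 and 10 were called at No Dox in the same order of comparisons, where 39.8%, 44.2% and 35.0% of all genes were, so the share was below that of all genes in both comparisons with β cells. Src, a kinase that works with Egfr, was lowest in ECs, at 59, 83, 55 and 44 against 976, 576, 986 and 1980 in β cells (4.10 ± 0.34, adjusted p = 1.63e-10) and 1903, 1286, 673 and 977 in MΦs. Plcg1, a phospholipase recruited by active receptors, was highest in ECs, with ECs at 9531 to 10718, β cells at 1773 to 2341 and MΦs at 660 to 787 (3.81 ± 0.17, ECs minus MΦs, adjusted p = 5.45e-16). The adaptors Gab2 and Grb2 and the PI3K catalytic subunit Pik3cb were highest in MΦs (β cells minus MΦs -3.23 ± 0.37, -2.42 ± 0.16 and -3.10 ± 0.13). At 1wk WD 6, 8 and 10 were called, against 37.2%, 43.9% and 38.3% of all genes. At 1wk Dox 4 were called between β cells and MΦs, against 40.3%, and none of the 26 was called between time points in any cell type.

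Of the 18 genes of ERK output and feedback, 1 was called in MΦs at 1wk Dox (2.26% of all genes), 1 in MΦs at 1wk WD (0.626%) and 1 in ECs at 1wk WD (1.76%), all against No Dox. Ier3, an immediate early gene induced by ERK, scored 1202, 1901, 1161 and 1748 in No Dox MΦs, 4846 and 3529 at 1wk Dox, then 3448, 6319, 4253 and 2977 at 1wk WD. All later MΦ samples lay above all No Dox samples, and Ier3 rose by 1.49 ± 0.29 at 1wk Dox (adjusted p = 0.0171) and 1.47 ± 0.24 at 1wk WD (adjusted p = 0.0158). The 1wk Dox call was lost without either 1wk Dox sample (adjusted p = 0.408 and 0.0665) and with only the compared groups fitted (0.052), the 1wk WD call without 1wk WD sample 3 (adjusted p = 0.0553), and both with no filter (0.0859 and 0.104) or no trend (0.0773 and 0.103). Ccnd1, cyclin D1, a driver of cell cycle entry, scored 6333, 5715, 6187 and 4867 in No Dox ECs, 10356 in the 1wk Dox sample, then 4052, 3978, 2113, 2779 and 1748 at 1wk WD. Its EC range at 1wk WD lay wholly below No Dox, and the difference of -1.05 ± 0.23 was called (adjusted p = 0.025). That call was lost without No Dox EC sample 1, 2 or 3 (adjusted p = 0.0843, 0.0647 and 0.0831), without 1wk WD sample 3 (0.0574), without 1wk WD sample 5, where the difference was -0.88, without the library of high acinar marker sum (No Dox EC sample 2), and with no filter (0.175) or no trend (0.0876). In the same EC libraries the 10 endothelial markers summed to 585746 to 620354 at No Dox and 427801 to 491660 at 1wk WD. They summed to 717369 in the 1wk Dox sample. The stromal marker sums ran from 5637 to 12607 at No Dox and from 16858 to 70818 at 1wk WD. The part of either in the Ccnd1 scores was not tested. Between cell types 9, 7 and 10 of the 18 were called at No Dox, against 39.8%, 44.2% and 35.0% of all genes. Spry4, a feedback inhibitor of receptor signalling, ran from 11824 to 15912 in No Dox ECs, 136 to 6336 in β cells and 26 to 156 in MΦs (7.73 ± 0.85, ECs minus MΦs, adjusted p = 1.52e-08), and Myc, a growth-promoting transcription factor, scored 68 to 276 in ECs against 2127 to 3044 in β cells (4.47 ± 0.30, adjusted p = 2.95e-12). At 1wk WD 7, 10 and 11 of the 18 were called, against 37.2%, 43.9% and 38.3% of all genes. At 1wk Dox 8 were called between β cells and MΦs, against 40.3%.

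The genes whose scores most resembled each member were ranked by Pearson's r of log2(score + 1) over the 32 libraries, among 16968 genes; the points share 3 cell types and the same libraries, and no p is given. For Egfr these were Abca8b (0.975), Gria3 (0.972) and Sec16b (0.968), for Erbb2 C2cd2 (0.949), Msrb3 (0.932) and Afap1 (0.925), and for Erbb3 Gpc1 (0.927), Anpep (0.914) and Lbh (0.902). Erbb4 was matched less closely, by Onecut2 (0.858), Fermt1 (0.789) and Clmn (0.784). Among the ligands, Hbegf was nearest to Clca1 (0.943), 1700029G01Rik (0.934) and Sema6d (0.919), Areg to Rasgrp1 (0.946), Slc9a9 (0.939) and Ptpn6 (0.933), Tgfa to Clu (0.912), Sema3c (0.881) and Mmp15 (0.881), and Nrg1 to Sema4b (0.916), Micalcl (0.91) and P2rx6 (0.895). Btc was nearest to Nkain2 (0.822), Foxd3 (0.811) and Gm17394 (0.801), and Ereg, which was above 1 in 5 libraries, to Cntnap4 (0.917), Cntnap5c (0.812) and Olfr985 (0.808).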

How the data were processed

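RNA of sorted islet cells was amplified (NuGEN Ovation) and sequenced as 50 bp paired ends. Per the study's methods, the authors mapped reads to mm9 with TopHat 2.0 and made TMM-normalized values in Avadis NGS; the deposited values are a score per gene, given as whole numbers with a lowest value of 1, so they were not treated as read counts. TMM scaling leaves each library's score sum open to a few abundant genes. The RNA integrity limit and fragment size differ between the labels and the methods. The table also held 6 columns that match no sample here and were not used. The authors' annotated coordinates of the 15 family genes were the same in GENCODE M1. limma 3.58.1 in R 4.3.3 (moderated, with trend) was fitted to log2(score + 1) for genes averaging 20 or more in any group: within each cell type for time points, and over 9 groups and 32 samples for cell types and for differences between changes. Calls needed a 2-fold difference and a p, adjusted by Benjamini-Hochberg, below 0.05. The fit was tested on simulated data. Named genes were all members, the 5 other ligands, and of each pathway list up to 4 called genes per comparison with the widest fold. The members and lists were chosen with earlier results of these data known. Alternatives were a pseudocount of 20, no filter, quantile normalization, no trend, a replicate block, only the groups compared, an EC fit that held the lone 1wk Dox sample, each sample left out and, added after seeing the data, fits without libraries of high acinar or stromal marker sums.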

Additional observations from a re-analysis of the deposited data

Results flagged for a closer look

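Of 52 member and group combinations of 4 or 5 samples, 10 held a sample set apart from the others by Dixon's criterion. Chance gives about 1 in 20 for normal values, which these are not: the scores as deposited are skewed with a floor at 1, and all 10 samples were the highest of their group, so the number is not read against chance. The high samples were Areg at 144 in No Dox MΦ sample 1, Ereg at 102 in 1wk Dox β cell sample 3, Egfr at 13421 in No Dox β cell sample 4, Erbb2 at 45 in 1wk WD MΦ sample 3 and Erbb3 at 25 in 1wk WD EC sample 4. The other 5 all lay in No Dox libraries with an acinar marker sum over 1000000: Btc at 11 and Erbb4 at 20 in EC sample 2, and Btc at 6, Tgfa at 752 and Erbb4 at 170 in MΦ sample 2. Egfr at 13421 lay in such a library too. The part of acinar material in these scores was not tested.

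In 4 cases the 1wk Dox EC sample lay on one side of the No Dox EC mean while every 1wk Dox sample of another cell type lay on the other side of its own No Dox mean in score; these differences were not tested, since the ECs had 1 sample. They were Areg, at 1 in that EC sample, against MΦs, Tgfa, at 688, against β cells and against MΦs, and Erbb3, at 3, against MΦs. For Areg and Erbb3 the EC sample lay inside the No Dox EC range, 1 to 3 and 1 to 64, and for Tgfa above it. For Tgfa against MΦs this depends on the scale: the MΦ No Dox mean of 232 holds the sample at 752, and on log2(score + 1) the 1wk Dox MΦ sample at 61 (5.95) lay above the No Dox mean (5.86). Egfr would be added on that scale, where the EC sample (5.86) lay above the No Dox EC mean (5.43). All 1wk Dox β cell and MΦ samples lay below their own No Dox means in Egfr (12.73 and 9.25).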

How the results depend on the processing

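Of the counts of called members, those between time points in β cells and ECs were 0 under all alternatives run. With each sample left out, the No Dox counts were 7 to 8 for β cells against ECs and 6 to 7 for ECs against MΦs, and at 1wk WD both comparisons with ECs were 6 to 7. In MΦs at 1wk Dox the count was 1 with quantile normalization, 2 without the libraries of high acinar marker sum and 0 to 1 with each sample left out; at 1wk WD it was 1 without those libraries and 0 to 1 with each sample left out. No Dox β cells against MΦs (7) gave 3 with only the groups compared, 4 without the high acinar libraries, 3 with only the β cell libraries of low stromal marker sum and 4 to 8 with each sample left out (4 without β cell sample 4). The 1wk Dox count for β cells against MΦs (3) was 1 with the replicate block and 1 to 4 with each sample left out (1 without either MΦ sample), and at 1wk WD (6) it was 3 with the low stromal libraries and 4 to 6 with each sample left out. The contrast of changes called 1 member for β cells against ECs with the low stromal libraries (Btc) and 1 for ECs against MΦs without the high acinar libraries, or 0 to 1 with each sample left out (Egfr). In the 1wk Dox EC sample 0 members lay past 2-fold with a pseudocount of 20 and 2 with no filter. Signs turned for Btc in β cells at 1wk Dox (0.43 without the high acinar libraries), Tgfa in MΦs at 1wk WD (0.92 without them, -2.73 to 0.12 with each sample left out) and Erbb4 in MΦs between 1wk WD and 1wk Dox (0.69 with the replicate block, -3.39 to 0.58 with each sample left out). Apart from fewer samples in the left-out fits, the cause was not tested.

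Whether equal replicate numbers mark paired samples is not known. In no comparison with 3 or more pairs did every pair's deviations correlate above 0.1, a rule that cannot show the samples to be unpaired. For No Dox ECs against MΦs the mean correlation was 0.12 for equal numbers and -0.04 for others. For β cells at 1wk WD against No Dox it was -0.39 and 0.13. The replicate block was therefore an alternative only. It changed no other count of members called by more than 1.5 times. With the block, Areg and Ereg at 1wk Dox (adjusted p = 0.0949 and 0.121) and Tgfa at No Dox (0.0786), all β cells against MΦs, Ier3 in MΦs at 1wk Dox (0.135) and Ccnd1 in ECs at 1wk WD (a difference of -0.88) were not called. The depth behind the scores is unknown, and scores near 1 have no known error.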
